A study of Bubalus bubalis with 6 samples.

Results

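Intergenic and intron circRNAs were described as 2 classes in the subcutaneous adipose tissue of Chinese buffalo (swamp type, Bubalus bubalis). A circRNA is a covalently closed transcript whose downstream end is joined to an upstream end, and it is counted by the reads that cross this back-spliced junction. The members were all rows of the circRNA table whose type was given as intergenic region or as intron. They numbered 222 of 14990 circRNAs, with 112 intergenic circRNAs (0.747%) and 110 intron circRNAs (0.734%). The other circRNAs were 13623 of exon type and 1145 of exon–intron type, and the exon type served as the comparison. No filter on libraries was set for these counts, and the paper reports a smaller set. With a read in at least 2 libraries there were 5300 circRNAs, of which 46 were intergenic and 7 of intron type.

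The young group was 3 buffaloes of 6 months and the adult group was 3 buffaloes of 30 months, with 1 library per animal. Where a value is given as ±, the error is the SD over the 3 animals of a group unless an SE is named. All 6 animals were kept on the same farm with equal forage and feeding, and none carried a treatment or a genetic change. The libraries were depleted of rRNA and kept linear RNA, so that circRNAs were measured beside all other transcripts. They held 12275 to 17680 back-spliced reads in the young group and 10745 to 16249 in the adult group. Reads of buffalo were placed on the genome of cattle (UMD3.1), and all positions below are on that build, counted from 1. "Intergenic" is the type that the table gives on that build, and some circRNAs of this type overlapped circRNAs that the table assigns to genes, as counted further on.

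Most circRNAs come from exons, where the spliceosome joins a splice donor to an upstream acceptor. Intron circRNAs are known in other mammals mainly as intron lariats that kept their loop after splicing, with a junction between the donor and the branch point. Intergenic circRNAs have no annotated host, and may lie in genes or exons that an annotation lacks. Adipose tissue consists of fat-storing adipocytes together with endothelial cells, macrophages and other stromal cells. In whole tissue, fewer cells of a type and less RNA per cell cannot be told apart. The adipocyte gene CIDEC, which promotes lipid droplet growth, was at 191 to 911 FPKM (fragments scaled by transcript length and sequencing depth) over the 6 libraries. The skeletal muscle genes NEB and RYR1 were at 0.862 FPKM or below in every library. Between ages, LPL (lipoprotein lipase) was higher in the adult group by 3.74 on the log2(FPKM + 1) scale (limma adjusted p = 0.00943). The macrophage receptor CD163 was lower by 2.24 (limma adjusted p = 0.0039), and the smooth muscle myosin MYH11 was lower by 2.22 (limma adjusted p = 0.0153). The endothelial VWF was higher by 1.70 (limma adjusted p = 0.0206). The adipocyte genes CIDEC (0.219) and PPARG (0.121 to 0.163 over 3 transcripts), the macrophage receptor MRC1 (0.373) and the endothelial genes KDR (0.0606), PECAM1 (0.374) and TEK (0.27) did not pass, nor did the leukocyte gene PTPRC (0.146). These values are on the deposited FPKM, whose sum was higher in every young library than in any adult library, as given further on. With FPKM scaled to an equal sum in every library, KDR was higher in adults by 2.25 (limma adjusted p = 0.00703). The size of each shift depends on this scale, and the other markers are given on the deposited scale only. The part of these shifts in the circRNA results was not tested.

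The intergenic class held 663 back-spliced reads, or 0.797% of 83165, and the intron class held 199 reads (0.239%). Every member of both classes was marked new in the table, against 677 of 14990 circRNAs that were marked as published. All 677 were of exon type, and 0 of 1145 exon–intron circRNAs were marked as published. Intergenic reads were concentrated in few members. The 2 most read members held 31.4% of the reads of their class, and the 10 most read held 51.3%. Intron reads were spread thinly, since 73 of 110 intron circRNAs rested on a single read, and the most read member had 14 reads.

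The most read intergenic circRNA, chr15:76980811-76994777, spanned 13966 bases between the circRNA hosts CRY2 and AMBRA1. It lay 203298 bases from the former and 360695 bases from the latter. It was the single intergenic circRNA with a read in all 6 libraries. It had 31, 1 and 23 reads in the young libraries, in the order of their replicate numbers, and 20, 26 and 21 reads in the adult libraries. One young library thus stood far below the other 5, and the groups overlapped. On the scale of the deposited values without the log, the level was 33.3 ± 31.0 for young and 40.4 ± 2.38 for adult animals. The fitted log2 fold change, adult minus young, was 1.05 ± 0.89 (SE), and it turned to -0.18 without young replicate 2. Young replicate 2, where the circRNA had 1 read, also had the lowest LPL (57.5 FPKM), CIDEC (191 FPKM) and PPARG (29.4 FPKM, transcript ENSBTAT00000001760). The part of this difference between libraries in the reads of the circRNA was not tested. A second circRNA, chr15:76987445-76994777, used the same end with a start 6634 bases further in. It had 2, 0 and 1 reads in the young libraries and 3, 6 and 2 reads in the adult libraries. Neither circRNA passed the limma test (adjusted p = 0.582 and 0.359). In the buffalo gene order (RefSeq, assembly NDDB_SH_1), the coding genes between CRY2 and AMBRA1 include PHF21A, a chromatin reader, and DGKZ, a diacylglycerol kinase. No symbol was given to the circRNAs from this order.

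The second most read member, chr17:40606888-40608971, differed most between ages. It spanned 2083 bases between RAPGEF2 and FNIP2, with 66924 bases to the nearest circRNA of RAPGEF2. Young replicates had 33, 20 and 30 reads, and adult replicates had 1, 2 and 0 reads. Every young library thus exceeded every adult library. The young level was 29.3-fold the adult level, with an exact 95% interval of 9.69 to 145 that covers counting error only. It was downregulated in the adult group by 4.58 ± 0.71 (SE) on the log2(scaled reads + 1) scale (limma adjusted p = 0.0219). The call was lost without any 1 of the 3 young libraries, where the adjusted p was 0.0998, 0.0821 and 0.0623 without young replicate 1, 2 and 3. It was also lost with a pseudocount of 0.5 (0.0624).

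Another 3 circRNAs overlapped it, of which 1 kept its end, 1 kept its start and 1 kept neither. chr17:40604513-40608971 ended at the same base and began 2375 bases earlier, and it had 6, 0 and 4 reads in the young and no read in the adult libraries. The longer chr17:40606888-40644348 kept the start, and it had no read in the young and 1, 0 and 2 reads in the adult libraries. chr17:40604513-40663120 had a single read, in adult replicate 3. The 4 circRNAs together had 93 reads in the young and 7 in the adult group. All young reads lay in the 2 short forms, while the adult reads were 3 in the short and 4 in the long forms. The map of the loci shows these forms with the reads of each library.

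Another locus lay on chr4, with 3 circRNAs and 41 reads. Its main form, chr4:9762677-9766001, had 8, 6 and 8 reads in the young libraries and none in the adult libraries. With a floor of 3 reads over the adult group, the young level as counted was 7.91-fold that floor. The counting error of the young reads is not in this value. It was the other intergenic circRNA past the threshold (limma adjusted p = 0.0496). It entered the test through its young libraries alone, so its p-values are a description only. The adjusted p rose to between 0.0623 and 0.0998 when any 1 of the 6 libraries was left out, so the call was lost without any one of them. chr4:9758938-9768051 had 4, 3 and 5 reads in the young and 0, 0 and 2 reads in the adult libraries. chr4:9762677-9768051 had 1, 1 and 3 reads in the young libraries and none in the adult libraries, and it too entered through the young libraries alone. All 3 forms were thus higher in every young library than in any adult library, although the latter 2 did not pass the adjusted test (0.147 and 0.0897). For the 2 forms with no adult read, this separation followed from entry through the young libraries alone and is a description only.

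**Figure D1:**
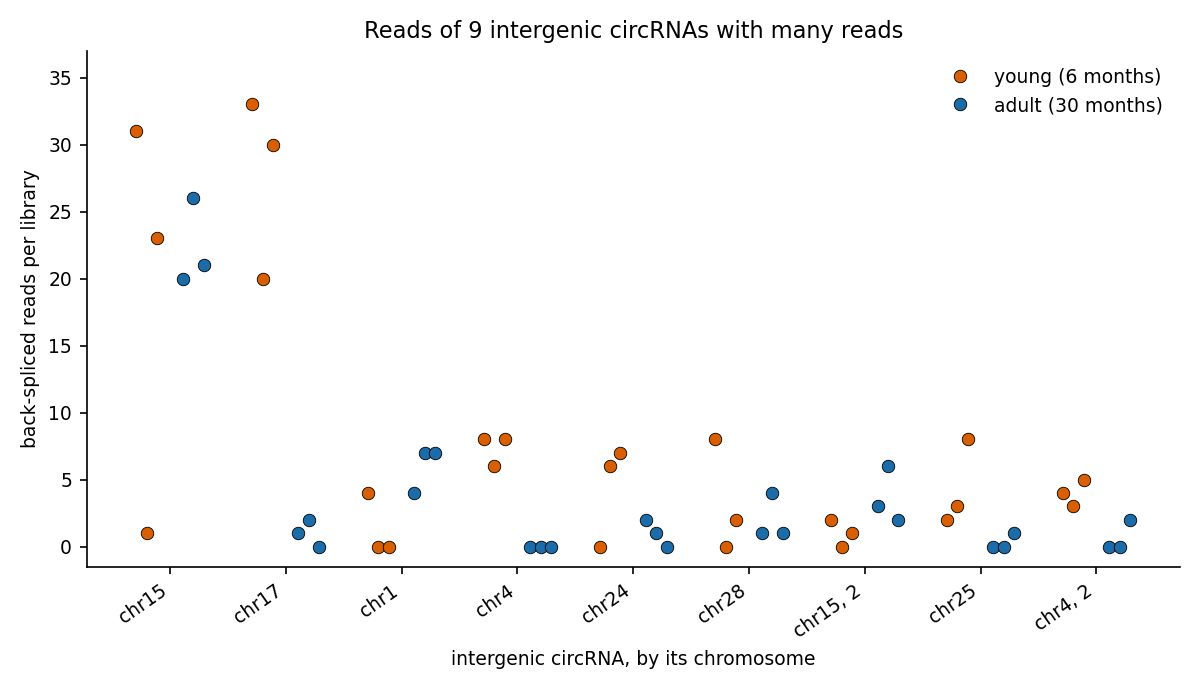
Back-spliced reads per library (vertical axis) of 9 intergenic circRNAs with many reads, named by chromosome; a number after the name marks another circRNA of the same chromosome. Each point is 1 library, 3 young and 3 adult per circRNA. The circRNA of chr17 has 20 to 33 reads in the young and 0 to 2 in the adult libraries, and the first of chr15 has 1 read in young replicate 2 and 20 to 31 in the other 5 libraries.

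**Figure D2:**
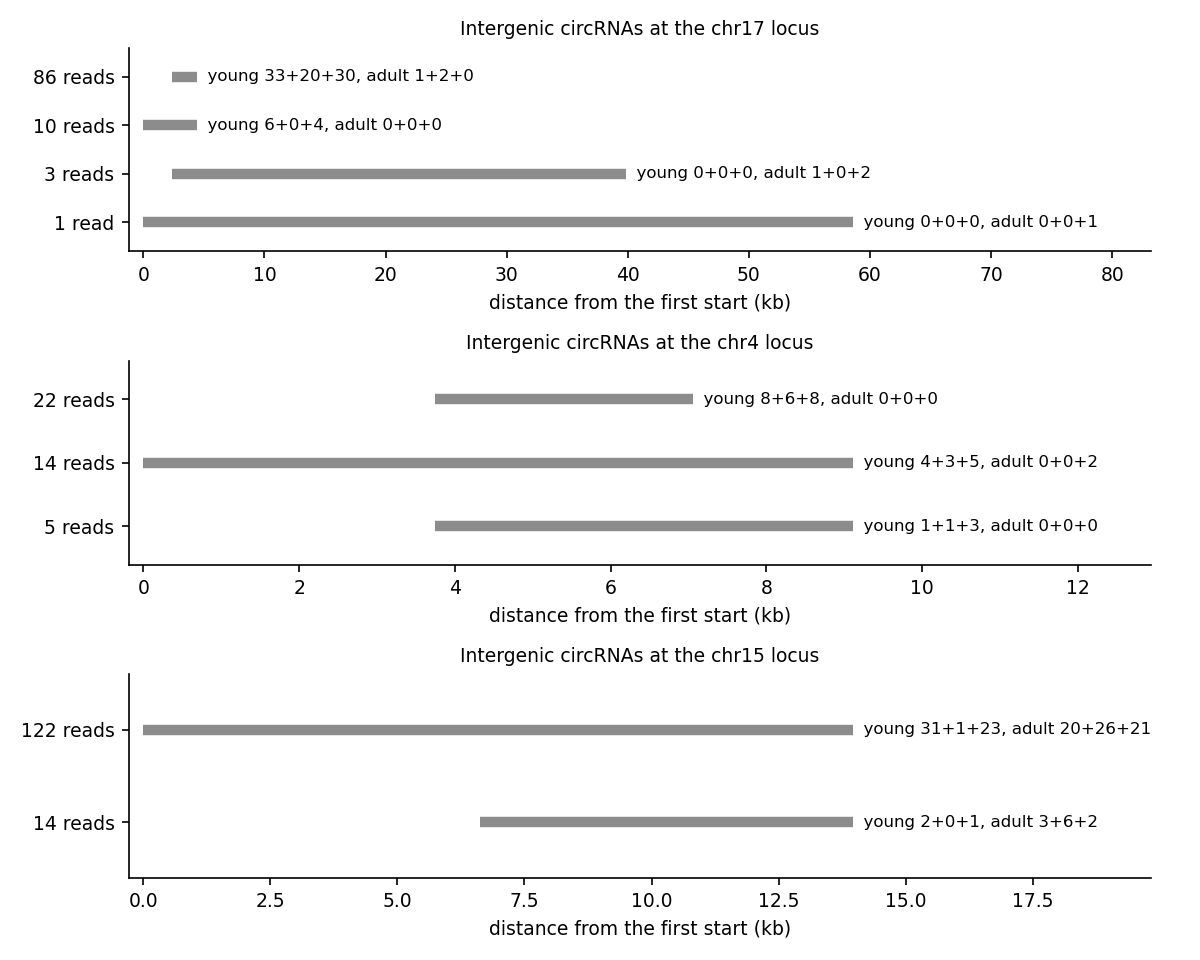
Extent of the circRNAs at 3 intergenic loci, as distance in kb from the first start of the locus; each bar is 1 circRNA, with its total reads at the left and its reads in replicates 1 to 3 of each age at the right. At the chr17 locus the 2 short forms hold 93 young and 3 adult reads and the 2 long forms hold 0 young and 4 adult reads.

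The test between ages needed a read in 3 or more of the 6 libraries, which 2834 circRNAs had, and 25 of them passed an adjusted p of 0.05 (0.882%), with 22 lower in the adult group (0.776%). Among the members, 24 intergenic and 3 intron circRNAs entered. The 2 intergenic circRNAs above passed, both lower in the adult group, which is 8.33% of 24. A member could enter through its young libraries alone, as 4 of the 24 did, so these shares describe the members that entered and not the class. The p-values of these 4 members are likewise a description only. At an unadjusted p under 0.05 there were 8 of 24 intergenic circRNAs (33.3%), against 22.1% of all circRNAs tested. In 9 of 24 every adult library lay below every young library, against 18.5% of all, and in none did every adult library lie above, against 6.46%. The 4 members that entered through their young libraries alone are among these 9, and their separation followed from the filter. The 3 overlapping forms of the chr4 locus are also among the 9. The median log2 fold change, adult minus young, was -1.07 for the intergenic circRNAs and -0.34 for all tested. For the intergenic circRNAs it was -0.83 when the 4 with no adult read were set at the floor of 3 adult reads. When each library was scaled to the mean back-spliced total, the medians were -0.69 and -0.12. These medians are over the members that entered and are, like the shares, a description only.

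Apart from the loci on chr17 and chr4, 4 intergenic circRNAs had an unadjusted p under 0.05, and 3 of them were lower in the adult group. chr9:9759831-9780548, between PHF3 and FAM135A, had 3, 2 and 5 reads in the young libraries and none in the adult libraries (limma adjusted p = 0.0897). Its young level as counted was 3.37-fold the floor of 3 adult reads. chr5:56392964-56410244, between ATP23 and LRP1, had 3, 2 and 2 reads in the young and none in the adult libraries (limma adjusted p = 0.0897). Its young level as counted was 2.59-fold the same floor. Neither value holds the counting error of the young reads. chr25:40433537-40455597 had 2, 3 and 8 reads in the young and 0, 0 and 1 in the adult libraries (limma adjusted p = 0.105). In these 3 the groups did not overlap, and none passed the adjusted test. Those of chr9 and chr5 entered the test through their young libraries alone, so their lack of overlap and their p-values are a description only. The other one was higher in the adult group. chr1:21617059-21645819, between USP25 and SAMSN1, had 4, 0 and 0 reads in the young and 4, 7 and 7 in the adult libraries (limma adjusted p = 0.167). Its groups overlapped through young replicate 1. NRIP1, a nuclear receptor corepressor that acts in adipocytes, is among the coding genes between USP25 and SAMSN1 in buffalo.

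The ages overlapped in several other intergenic circRNAs with many reads. chr24:44744272-44757614 had 0, 6 and 7 reads in the young and 2, 1 and 0 in the adult libraries. chr28:4682735-4699404 had 8, 0 and 2 reads in the young and 1, 4 and 1 in the adult libraries. In chr29:45886577-45887205, between CCS and CHKA, with 5, 1 and 5 reads in the young and 1, 0 and 1 in the adult libraries, every adult library lay lower after scaling (limma adjusted p = 0.311). The shortest intergenic circRNA seen in at least 2 libraries was chr6:87555818-87555954, with 136 bases and 3 reads. The longest was chr21:32925131-33021079, with 95948 bases next to PEAK1 and 11 reads.

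Presence and absence were also counted, as a description at this depth. With a read in at least 2 young libraries and in no adult library there were 13 of 112 intergenic circRNAs (11.6%) and 2 of 110 intron circRNAs (1.82%), against 7.95% of all 14990 circRNAs. The reverse held for 4 intergenic (3.57%) and 0 intron circRNAs, against 2.78% of all. A read in at least 2 libraries, which both counts need, was found for 46 intergenic and 7 intron circRNAs, against 5300 of all. Besides those above, the most read was chr8:27248888-27268298, with 0, 4 and 5 reads in the young libraries, which shared its end with a circRNA of CNTLN. Of all intergenic circRNAs, 42 were seen in young libraries alone, 41 in adult libraries alone and 29 at both ages.

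As a share of the back-spliced reads of a library, intergenic circRNAs took 1.16%, 0.611% and 0.95% in the young libraries and 0.744%, 0.622% and 0.624% in the adult libraries. The young mean was 0.907% ± 0.276 and the adult mean 0.663% ± 0.070, and the ages overlapped (p = 0.4 by a two-sided exact permutation, which cannot go below 0.1 with 3 animals against 3). Without chr17:40606888-40608971 the difference, adult minus young, was -0.059 in place of -0.244 percentage points. It was -0.117 without young replicate 1 and -0.391 without young replicate 2. Intron circRNAs took 0.160%, 0.326% and 0.147% in the young and 0.176%, 0.363% and 0.279% in the adult libraries. Young replicate 2 and adult replicate 2 had the highest intron share of their groups, and the ages overlapped (p = 0.5 by the same exact test). In a draw of 10745 back-spliced reads per library, 33.1 ± 8.43 distinct intergenic circRNAs were expected for young and 28.2 ± 2.94 for adult animals (exact permutation p = 0.4). The difference of -4.84 was -1.43 without young replicate 1 and -9.55 without young replicate 2. For intron circRNAs the numbers were 17.4 ± 6.05 and 16.6 ± 5.69 (exact permutation p = 0.6). These were among 10 tests of single values, and the adjusted p of all 4 was 0.667.

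**Figure D3:**
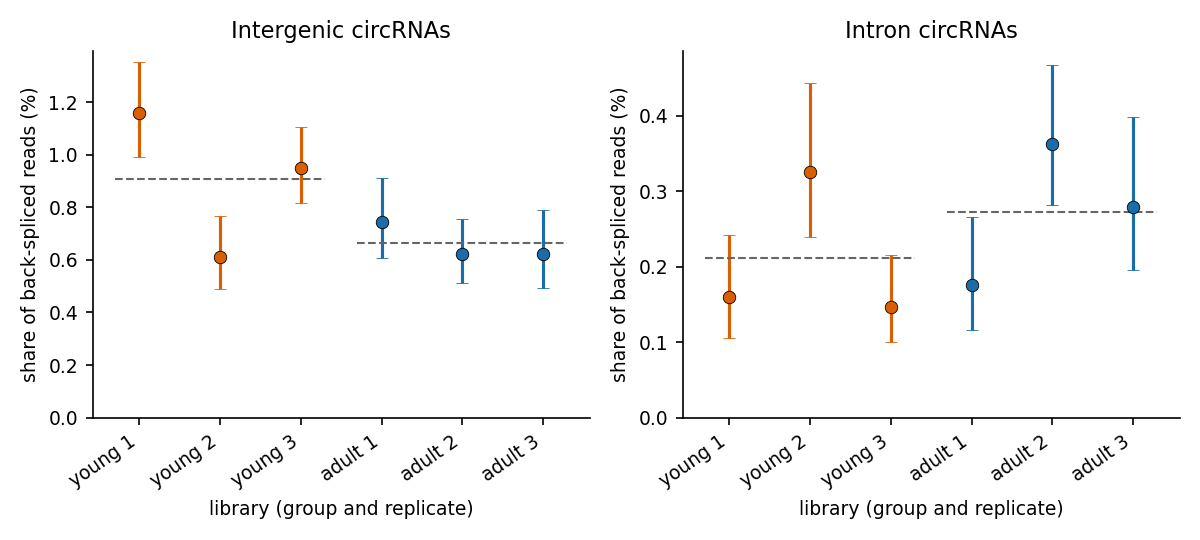
Share of the back-spliced reads of each library (percent) in intergenic circRNAs (left) and intron circRNAs (right); points are libraries, bars are Wilson 95% intervals that cover counting error only, and dashed lines are the means of the groups. The intergenic share is 1.16% in young replicate 1 and 0.611% to 0.95% in the other young libraries, and the adult libraries lie between 0.622% and 0.744%.

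The 2 classes differed in span, which is the end minus the start. The median span was 9423.5 bases for intergenic circRNAs (136 to 157725) and 837 bases for intron circRNAs (70 to 20737), against 11676 bases for exon circRNAs. Intron circRNAs were shorter than exon circRNAs in each of the 6 libraries. Over the libraries, the median log10 span was lower by 1.06 on the log10 scale (two-sided exact paired permutation, p = 0.0313, the lowest that 6 libraries allow; adjusted p = 0.0781 over 10 tests). An intron circRNA lies within 1 intron, so its span is bounded by the definition of the class. Of the intron circRNAs, 58 of 110 (52.7%) spanned under 1 kb, against 5.55% of all circRNAs. The intergenic median was also below the exon median in 6 of 6 libraries, by 0.149 on the log10 scale (exact paired permutation p = 0.0313; adjusted p = 0.0781). The longest intron circRNA by far lay in ALG14, which encodes a glycosyltransferase subunit, at chr3:48616599-48637336, with 20737 bases, 1 read in young replicate 3 and 5 reads in adult replicate 3.

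**Figure D4:**
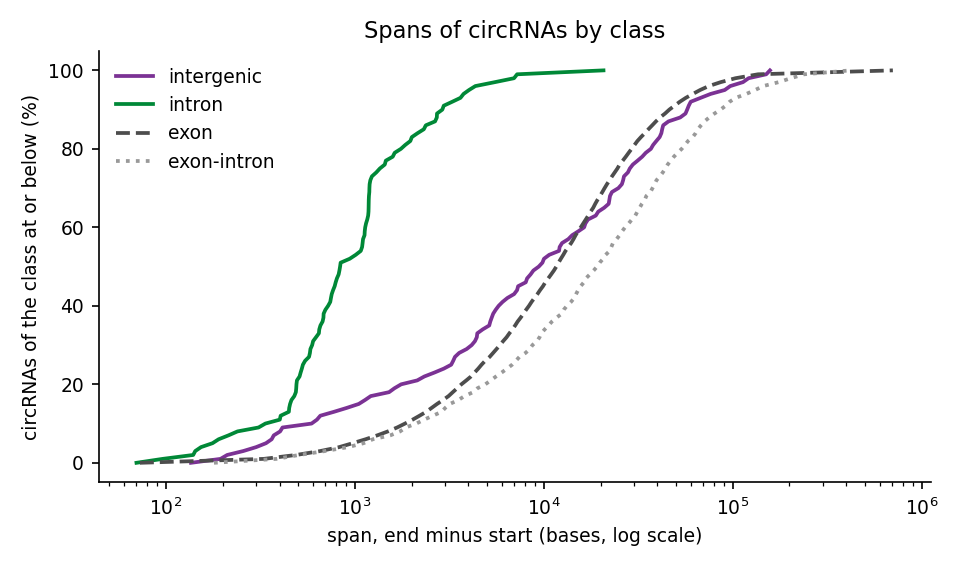
Percent of the circRNAs of each class (vertical axis) at or below a span in bases (horizontal axis, log scale). The curve of intron circRNAs lies left of the others, with a median of 837 bases, and that of intergenic circRNAs, with a median of 9423.5 bases, starts left of the exon curve and crosses it above the median.

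Intron circRNAs also recurred less between libraries. Of those seen in a library, 25%, 18.5% and 17.4% in the young and 0%, 10.3% and 30.8% in the adult libraries were seen in at least 1 other library, against 59.5% to 69.4% for exon circRNAs. The difference was -46.3 percentage points, in the same direction in 6 of 6 libraries (exact paired permutation p = 0.0313; adjusted p = 0.0781). It was -42.2 points among circRNAs with 1 read in the library. Reads per detected circRNA were 1.13 to 2.31 for intron circRNAs and 2.63 to 3.79 for exon circRNAs, with a mean difference of -1.61 reads (exact paired permutation p = 0.0313; adjusted p = 0.0781). With the median in place of the mean the difference was -0.5 reads (exact paired permutation p = 0.25). None of the 10 tests passed 0.05 after adjustment. For intergenic circRNAs the exact paired permutation p was 0.563 for the share seen again and 0.813 for reads per circRNA. Their shares seen in another library were 73.3%, 92.0% and 65.9% in the young and 57.6%, 61.3% and 59.3% in the adult libraries. Here the libraries are not independent, since they share circRNAs.

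The positions of the intron circRNAs at a locus differed by few bases. Of 110 intron circRNAs, 29 (26.4%) shared 1 end with another intron circRNA while the other end lay within 30 bases of its own. This held for 0.323% of exon circRNAs, 0.349% of exon–intron circRNAs and 0 of 112 intergenic circRNAs. The 29 formed 8 groups, each with 1 fixed end and the other end spread over 1 to 25 bases. The 11 intergenic loci with 1 fixed end varied at the other end by 778 to 89753 bases. In all, 45 intergenic circRNAs (40.2%) shared an end with another intergenic circRNA.

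HNRNPK, which encodes an RNA-binding protein of the hnRNP family, was the leading host, with 14 intron circRNAs and 36 reads (18.1% of the class). It had no exon circRNA. Of its circRNAs, 10 ended at position 78582437 of chr8 and began within 25 bases of each other, at 78581239 to 78581264. Their most read form, chr8:78581251-78582437, had 1, 3 and 1 reads in the young and 0, 4 and 2 in the adult libraries. The form that began 10 bases earlier, chr8:78581241-78582437, had 1, 1 and 0 reads in the young and 0, 5 and 0 in the adult libraries. Summed over the 10 forms, the reads were 3, 12 and 2 in the young and 3, 10 and 2 in the adult libraries. The sum was thus above 0 in all 6 libraries, with replicate 2 highest at both ages, whereas no single form was read in more than 5 libraries. The other 4 circRNAs of HNRNPK shared their end at 78580967 and had 1 read each. The HNRNPK mRNA was at 181 ± 33.5 FPKM in young and 172 ± 24.6 FPKM in adult animals (limma adjusted p = 0.859). With FPKM scaled to an equal sum in every library it was higher in adults by 0.67 on the log2 scale (limma adjusted p = 0.027). On that scale the median of all transcripts was higher by 0.61, and 40.7% of them passed as higher.

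MBNL1, which encodes a splicing regulator of the muscleblind family, had 4 intron circRNAs that ended at position 116245454 of chr1 and began within 5 bases. Together they had 1, 7 and 2 reads in the young and no read in the adult libraries. The most read, chr1:116244962-116245454, had 6 reads in young replicate 2 alone, so the young excess rests largely on that library. PCSK5, a proprotein convertase, had 3 forms with 1 read each, in 3 libraries, whose ends lay within 6 bases. KDR (the VEGF receptor of endothelial cells), TP53INP1, FOXP1 (a forkhead transcription factor) and PTBP1 (a splicing repressor) had 1 pair of such forms each, with ends 6, 7, 1 and 12 bases apart. KDR had 3 intron circRNAs in all, and their 8 reads lay in adult libraries, with 2, 6 and 0 reads. Most of them thus came from adult replicate 2. When forms with near-identical ends were counted as 1, there were 89 intron units, of which 11 were seen in at least 2 libraries, against 7 of 110 before. The difference in recurrence from exon circRNAs was then -34.2 percentage points.

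**Figure D5:**
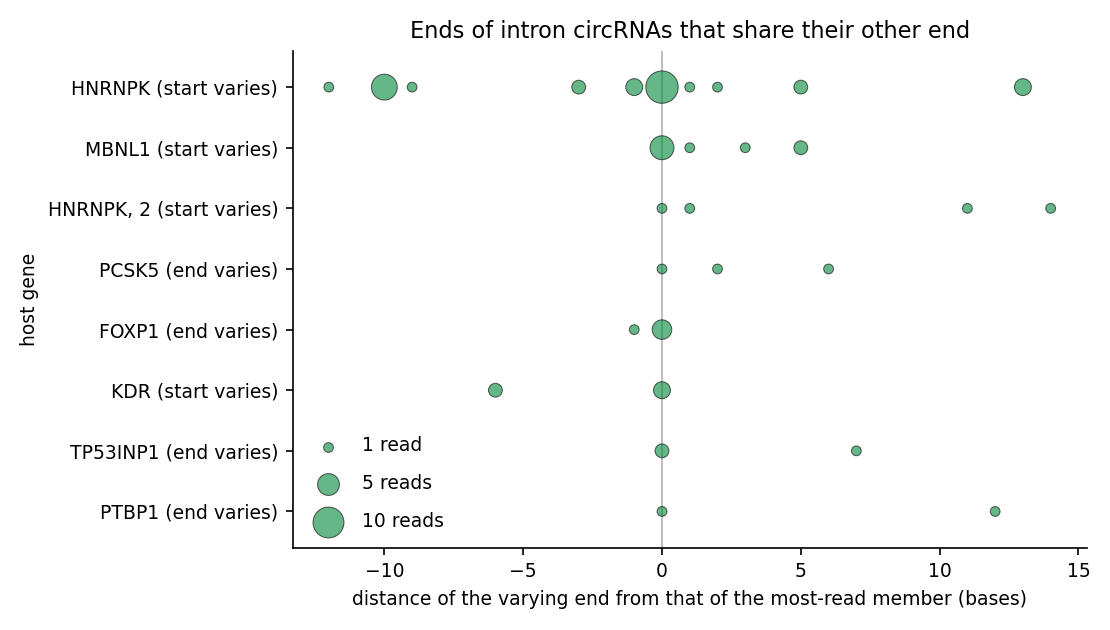
Distance in bases of the varying end of each intron circRNA from that of the most read circRNA at its locus, for the 8 groups that share their other end; point area is proportional to reads, and the vertical line marks the most read form. The 10 forms of the first HNRNPK group span 25 bases and the other groups span 1 to 14 bases.

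Outside these groups, few intron circRNAs were seen again. YAF2, a subunit of Polycomb complexes, gave the most read intron circRNA, chr5:38699568-38699893, with 3, 3 and 0 reads in the young and 0, 6 and 2 in the adult libraries. ITPR2, a calcium channel of the endoplasmic reticulum, gave chr5:83809234-83811588, with 1 read in young replicate 2 and 4 in adult replicate 3. Its start lay directly after the end of an exon circRNA. Of all intron circRNAs, 11 abutted the junction of an exon circRNA in this way, 7 at the start, 4 at the end and none at both. The 3 intron circRNAs that entered the test, 2 of HNRNPK and that of YAF2, did not pass (0 at an unadjusted p under 0.05; smallest limma adjusted p = 0.902).

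The intron circRNAs came from 83 host genes with a symbol, of which 57 also gave exon circRNAs and 26 did not. Genes of chromatin and RNA processing held 10 of them, out of 36 genes of that list that gave a circRNA of any type (27.8%), against 83 of 4019 for all hosts (2.07%). They included HNRNPK, HNRNPU, MBNL1, QKI, RBM39, SRSF6, CLK4, NKTR and KMT2C. SRSF6 is a serine/arginine-rich splicing factor, CLK4 a kinase of such factors, QKI an RNA-binding protein known to promote circRNA formation, and KMT2C a histone methyltransferase. Each of the 10 but HNRNPK and MBNL1 had 1 intron circRNA with a single read. Of 13 hosts with symbols starting in HNRNP, 4 gave intron circRNAs, a group chosen after its values were seen. Lipid metabolism genes gave 2 of 18. DGAT2, the last enzyme of triglyceride synthesis, had 2 reads in adult replicate 2, and FDFT1 (squalene synthase) had 1 read in adult replicate 1. The extracellular matrix and stromal list gave 0 of 15, but it does not hold the collagens COL14A1 and COL4A4, which had 1 intron circRNA each, with 1 and 3 reads. These lists were chosen with earlier results known, and no test of a list was made.

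Hosts of intron circRNAs were well expressed as mRNA. Of 99 host transcripts, 97 had a mean of at least 0.5 FPKM, with a median of 24.1 FPKM, against 13.6 FPKM for hosts of exon circRNAs alone and 8.55 FPKM for all 14994 transcripts tested. Between ages, 6 host transcripts were upregulated in the adult group, where 10.6% of all transcripts were, and 14 were downregulated, where 9.31% of all were. The direction depends on the scale. The FPKM summed to 1093380 to 1237790 in the young and 657311 to 721755 in the adult libraries, and after scaling to an equal sum 44 of the 97 hosts were higher and 3 lower, where 40.7% and 4.72% of all transcripts were. The median log2 fold change of all transcripts was then 0.61 in place of 0.01. All 6 higher hosts and 3 of the 14 lower hosts passed on both scales.

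Among the higher hosts, DGAT2 was at 176, 26.6 and 657 FPKM in the young and at 3460, 2637 and 2016 FPKM in the adult libraries, higher by 4.16 ± 1.02 (SE) on the log2(FPKM + 1) scale (limma adjusted p = 0.0315). ITPR2 was higher by 1.65 (limma adjusted p = 0.0385), ZDHHC13, a palmitoyltransferase, by 1.33 (0.0429), and INTS7, an Integrator subunit, by 1.06 (0.0316). The calls of DGAT2, ITPR2 and INTS7 were lost without young replicate 1 or any 1 adult library, with adjusted p of up to 0.108, 0.133 and 0.116. That of ZDHHC13 was lost without any 1 library other than young replicate 3, up to 0.15. MAP4, a microtubule-associated protein, had transcripts in both directions. Its transcripts ENSBTAT00000063349 and ENSBTAT00000021049 did not pass on the deposited scale (limma adjusted p = 0.129 and 0.967). ENSBTAT00000021045 was at 41.3, 38.0 and 56.9 FPKM in the young and 207, 210 and 198 FPKM in the adult libraries, while ENSBTAT00000030619 was at 23.1, 20.9 and 30.3 and at 4.24, 1.51 and 0 FPKM. SMARCE1, a subunit of the SWI/SNF complex, was lower on both scales in transcript ENSBTAT00000055258, from 29.8 ± 5.66 to 7.36 ± 0.24 FPKM (limma adjusted p = 0.00144). Its other transcript, ENSBTAT00000020356, did not pass on the deposited scale (limma adjusted p = 0.0594). With FPKM scaled to an equal sum, the log2 fold change of ENSBTAT00000020356 was 0.017 (limma adjusted p = 0.951). On the deposited scale, 0 of the 10 hosts on the chosen chromatin and RNA processing list were higher and 3 (NKTR, RBM39 and HNRNPU) lower. Of all transcripts, 10.6% were higher and 9.31% lower on that scale. The call of HNRNPU was lost without any 1 library other than young replicate 2, with limma adjusted p of up to 0.146. That of RBM39 was lost without any 1 adult library (up to 0.0971), and that of NKTR without adult replicate 1 (0.0531). With FPKM scaled to an equal sum, 3 of the 10 were higher and 0 lower, where 40.7% and 4.72% of all were. The list does not hold every host of such a role. SMARCE1 and INTS7 above are not on it, nor are HNRNPM, RBM26 and SMNDC1, which were lower on the deposited scale and did not pass on the other.

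Part of the intergenic class met annotated genes. Of 112 intergenic circRNAs, 30 (26.8%) overlapped a circRNA that the table assigns to a gene, 23 lay within such a circRNA, and 21 (18.8%), with 51 reads in all, shared an exact junction end with one. The shared ends included those of TFDP2, CEP112, DMXL2, PAN3 and CNTLN. At TFDP2, a partner of E2F transcription factors, 3 intergenic circRNAs ended at position 127894524 of chr1 and had 9 reads. At CEP112, a centrosomal protein, 3 circRNAs had 6 reads, and at DMXL2, 4 circRNAs had 5 reads. The circRNA at PAN3, a subunit of a deadenylase, was chr12:31963044-31965882, with 2, 4 and 1 reads in the young and 2, 1 and 0 in the adult libraries. The other 82 intergenic circRNAs overlapped none. Their median distance to the nearest host circRNA was 179164 bases, with 15 under 50 kb and 10 over 500 kb away.

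The intergenic circRNAs fell into 80 loci of overlapping members. Of these, 61 had 1 member, and 19 held the other 51 members. The locus on chr28 between TTC13 and SIPA1L2 had the most, 6 circRNAs, of which 3 ended at position 4699404. On chr23, 4 circRNAs of up to 157725 bases had 6 of their 7 reads in adult replicate 1, and the longest intergenic circRNA, chr23:40202594-40360319, was among them. The loci on chr15 and chr17 together held 236 reads, or 35.6% of the class. By chromosome, intergenic circRNAs were 3.20% of all circRNAs on chr28 and 2.62% on chr17, and intron circRNAs were 2.53% on chr8, where HNRNPK gave 14 of 18.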

How the data were processed

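Per the study's methods, rRNA-depleted RNA of 6 libraries was sequenced in pairs, reads were trimmed with Trim Galore and aligned with STAR to cattle UMD3.1, and CIRCexplorer2 called circRNAs. The labels also name TopHat2 2.0.14 and Cufflinks. The deposited circRNA values are log2(x + 1) by the authors, where x is back-spliced reads times 1 step per library (1.42 to 2.59), and reads were recovered by dividing by that step. The deposited mRNA values are log2(FPKM + 1). The authors' comparison columns, fold changes and p-values, were not used.

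Ages were compared with limma 3.58.1 (R 4.3.3) on the deposited log2 values (pseudocount 1), for circRNAs read in at least 3 libraries and for transcripts of at least 0.5 mean FPKM, with Benjamini-Hochberg adjustment over all features. Single values had exact permutation tests (scipy 1.17.1). A class was set against exon circRNAs over the 6 libraries by exact sign changes of the paired differences. Intervals are Wilson or exact at 95% and cover counting error only. The floor of 3 reads covers the counting error of the adult reads alone. The limma step was run on counts simulated with counting error only. With no variation between animals in it, that run cannot show how the calls hold in these animals. Named circRNAs were those in all libraries, those past the threshold, the 10 most read, those of 1 age, the longest and shortest, and the loci of at least 3 members. Others with an unadjusted p under 0.05 were added after their values were seen. Members and lists were chosen with earlier results of these data known. Host symbols were matched to RefSeq (NDDB_SH_1) for 3732 of 4019 hosts, for neighbouring genes only. Strand is not given in the circRNA table, and no sequence is shown. Alternatives were other filters, pseudocounts, scalings, voom, a replicate block and leaving out each library. Some named genes and 1 of the 10 most read intergenic circRNAs are not reported here.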

Additional observations from a re-analysis of the deposited data

Results flagged for a closer look

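Reads per intergenic circRNA lay above the exon value in all 3 young libraries (mean difference 0.615 reads) and below it in all 3 adult libraries (-0.791). The adult minus young difference was -1.41 reads (exact permutation p = 0.1, the smallest that 3 against 3 allow). Without chr17:40606888-40608971 the differences from exon were 0.233, -0.382 and 0.006 in the young and -0.693, -0.267 and -1.31 in the adult libraries, so the young libraries no longer all lay above.

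The share of intergenic circRNAs seen in another library, minus the exon share, also differed in sign between ages. It averaged 15.9 percentage points in the young and -6.07 in the adult libraries, a difference of -22.0 points (exact permutation p = 0.1).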

How the results depend on the processing

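The limma count of circRNAs was 25, and it was 90 with a read in 2 libraries, 52 with no filter, 3 with a pseudocount of 0.5, 38 scaled to the mean total, 261 with voom, 134 with a replicate block, and 0 to 15 with 1 library left out. The intergenic count of 2 was 0 with the pseudocount of 0.5, 4 with voom and 0 to 1 with 1 library left out. Host transcripts called, 20 at first, were 12 with no filter, 10 with the replicate block, 47 with FPKM scaled to an equal sum (an alternative chosen after seeing the data) and 6 to 24 with 1 library left out. The labels state no pairing of animals by replicate number, and whether there was one was not tested. Correlations of deviations from the group means were 0.0361, 0.0222 and 0.0226 for equal numbers and -0.0203 to -0.00434 for unequal numbers. These are small, although every sample correlated best with its own number. With the block the exact p of the class shares was 0.5 for intergenic and 0.25 for intron circRNAs, the latter being the smallest that 3 pairs allow, with the adult library higher in all 3 pairs.

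Intergenic minus exon reads per circRNA were 0.167 with medians in place of means and -0.286 to 0.157 with 1 library left out. Intron minus exon was -0.5 with medians (exact permutation p = 0.25) and -1.69 to -1.51 with 1 left out. Leaving out 1 library raises the smallest possible p of a paired test to 0.0625. Median log10 span differences were then -0.173 to -0.122 (intergenic) and -1.08 to -1.04 (intron), and differences in the share seen again were -0.309 to 7.22 and -47.3 to -39.9 points. With 1 library left out, adult minus young ranged from -4.12 to 2.64 for distinct intron and from -9.55 to -1.43 for distinct intergenic circRNAs, and from -0.391 to -0.117 and 0.0165 to 0.119 percentage points for the intergenic and intron shares. The log2 fold change of chr15:76980811-76994777 ranged from -0.18 to 1.91. The cause of these changes was not tested. With intron circRNAs seen in at least 2 libraries alone, reads per circRNA and span gave no value, since a library held none. With 1 to 14 reads per intron circRNA, depth limits any comparison of single members.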
